A study of Mus musculus with 22 samples.

Results

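Interferon-induced genes of the antiviral response and of antigen processing were described over arterial smooth muscle cells from 7 mouse tissues. The 40 genes were chosen by symbol from a list of interferon-induced genes, and each was found once among the 28099 genes of the deposited table. They were divided by the interferon best known to induce them, with 31 genes in the type I class and 9 in the gamma class, although many of them answer to both. All 40 passed the filter on low values, for which 3 libraries had to reach a signal of 10, as did 16917 genes in all.

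Arterial smooth muscle cells were isolated by fluorescence-activated cell sorting, and RNA was sequenced in 4 libraries from intestine and in 3 from each of stomach, bladder, kidney, lung, heart and aorta. The mice of 6 tissues had the genotype Cspg4-Dre/Acta2-CreERT/R26-GFP, in which the Dre recombinase is driven by the promoter of Cspg4 and tamoxifen-inducible Cre by that of Acta2, a smooth muscle actin. Cspg4, which encodes the proteoglycan NG2, is also made by pericytes. Heart came from Cspg4-DreERT/Acta2-CreERT/R26-GFP mice, so heart and its genotype cannot be told apart. Every group had received tamoxifen intraperitoneally over 3 days, with a dose of 0.75 mg for each 10 g of mouse, and no group was untreated or given interferon. The labels used here give no age, sex or strain. Nor do they tie each library to its own animal, so the p-values rest on a spread between samples that may be technical.

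Type I interferons bind the receptor Ifnar1-Ifnar2 and act through Jak1 and Tyk2 on a complex that holds Stat2 and Irf9 and binds the interferon-stimulated response element (ISRE) at their target genes. Interferon gamma binds Ifngr1-Ifngr2 and acts through Jak1 and Jak2 on genes with a gamma-activated site (GAS), and Irf1 made in this way acts at further genes. Among the products are sensors of viral RNA, enzymes that block viral replication, the immunoproteasome, the peptide transporter Tap1 and B2m, the light chain of MHC class I molecules. Vascular smooth muscle cells respond to both kinds of interferon.

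The deposited values are a signal, scaled per library, and dividing it by the worth of 1 read gave rebuilt reads. The shallow libraries were aorta 1 with 629456 rebuilt reads, heart 3 with 817157, aorta 2 with 1540366 and aorta 3 with 1927765, against 4389363 to 12708428 in the other 18. The signal of 1 read was therefore 9.42 in aorta 1 and 0.422 in intestine 3. Summed signal of the 8 smooth muscle markers was 55982 to 83353 in aorta, 21238 to 86046 in heart and 19220 to 23454 in lung. It was 14802 to 27626 in kidney, 9818 to 17516 in bladder, 12152 to 15432 in stomach and 11810 to 14346 in intestine. None of these markers was at 0 throughout a tissue. Cspg4 gave a signal of only 15 in bladder 3 and 65 in kidney 2. In bulk samples, fewer cells of a type and less RNA per cell cannot be told apart. Intervals and floors given here cover counting error only, because without molecular identifiers several reads can stem from 1 molecule.

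Promoter windows from RefSeq (GRCm38.p6) were found for 32 of the 40 genes, and the 250 bases before the gene start are shown for 6 of them, because their values below set the tissues apart and they represent both classes. Isg15, Ifit1 and Rsad2 are type I genes and Cxcl10, Irf1 and Gbp7 gamma-induced ones. Capitals mark matches to an ISRE, searched as a pair of GAAA repeats with any 2 bases between them, or to a GAS, searched as TTCNNNGAA, on both strands, and all sequences are written 5′ to 3′ on the strand of the gene. Overlapping matches run together in 1 stretch of capitals.

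Isg15: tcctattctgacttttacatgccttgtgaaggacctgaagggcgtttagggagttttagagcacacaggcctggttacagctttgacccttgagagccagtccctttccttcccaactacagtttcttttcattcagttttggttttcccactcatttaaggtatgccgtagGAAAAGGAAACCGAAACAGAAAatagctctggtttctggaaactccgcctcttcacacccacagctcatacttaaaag
Ifit1: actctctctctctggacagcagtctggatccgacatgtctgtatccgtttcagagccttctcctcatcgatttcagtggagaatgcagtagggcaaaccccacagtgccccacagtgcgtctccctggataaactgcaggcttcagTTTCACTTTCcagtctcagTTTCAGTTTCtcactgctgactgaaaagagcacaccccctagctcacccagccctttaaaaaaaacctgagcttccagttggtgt
Rsad2: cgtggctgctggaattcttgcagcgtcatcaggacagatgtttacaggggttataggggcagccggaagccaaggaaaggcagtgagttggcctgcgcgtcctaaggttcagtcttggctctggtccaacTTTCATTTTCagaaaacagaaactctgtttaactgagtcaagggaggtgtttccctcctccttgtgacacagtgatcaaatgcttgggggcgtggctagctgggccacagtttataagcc
Cxcl10: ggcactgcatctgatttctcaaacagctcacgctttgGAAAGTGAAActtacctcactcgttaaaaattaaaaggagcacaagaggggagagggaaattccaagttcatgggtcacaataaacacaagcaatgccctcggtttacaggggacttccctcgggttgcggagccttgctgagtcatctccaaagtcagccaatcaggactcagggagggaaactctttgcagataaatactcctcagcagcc
Irf1: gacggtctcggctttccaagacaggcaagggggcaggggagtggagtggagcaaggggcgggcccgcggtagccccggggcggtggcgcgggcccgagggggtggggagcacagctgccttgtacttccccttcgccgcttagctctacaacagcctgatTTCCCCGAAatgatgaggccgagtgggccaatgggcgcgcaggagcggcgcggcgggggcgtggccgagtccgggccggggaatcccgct
Gbp7: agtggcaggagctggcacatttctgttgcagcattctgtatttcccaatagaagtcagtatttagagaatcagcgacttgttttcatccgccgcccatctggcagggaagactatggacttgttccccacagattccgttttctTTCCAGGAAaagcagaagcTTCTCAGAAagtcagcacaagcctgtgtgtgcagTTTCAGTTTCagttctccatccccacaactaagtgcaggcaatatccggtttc

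These windows lie at chr4:156200819-156201068 on the minus strand (Isg15), chr19:34640639-34640888 on the plus strand (Ifit1) and chr12:26456453-26456702 on the minus strand (Rsad2). Those of the gamma-induced genes lie at chr5:92348890-92349139 on the minus strand (Cxcl10), chr11:53769764-53770013 on the plus strand (Irf1) and chr3:142530086-142530335 on the plus strand (Gbp7). Isg15 has 3 overlapping ISRE matches, Ifit1 has 2, and Irf1 has a GAS match and no ISRE match. Over 300 bases from 250 before to 50 after the start, an ISRE match was found in 17 of the 32 genes (53.1%), against 3.99% of the 27025 genes with a window. A GAS match was found in 10 of 32 (31.2%), against 9.55% of all genes. The letters did not set the classes apart. ISRE matches were in 12 of 23 type I genes (52.2%) and in 5 of 9 gamma-induced genes (55.6%), and GAS matches in 7 of 23 (30.4%) and 3 of 9 (33.3%). A match describes the letters only and does not show that a factor binds there.

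Aorta stood apart from the other tissues. All its libraries were shallow, so aorta and low depth cannot be fully told apart. By mean, summed signal of the smooth muscle markers was also highest in aorta, and its part in the aorta results was not tested. With limma, fitted across all genes, every tissue was compared with the mean of the other 6, weighted equally, at a Benjamini-Hochberg adjusted p under 0.05. In aorta 28 of the 40 genes were lower, while 42.8% of all tested genes were lower there too, and 4 were higher, against 9.15% of all genes. The lower genes comprised 22 of the type I class and 6 of the gamma class, and the higher ones were Ifi27, Ifitm2, Ifitm3 and B2m. The median log2 fold change in aorta was -2.66 over the 40 genes, -3.14 over the type I class and -1.35 over the gamma class, against -1.04 over all tested genes. With the 6 genes that had no read in aorta set to the bound that 3 reads allow, these medians were -2.50, -2.61 and -1.35. The distance between the classes depended on the scale: the type I and gamma medians were -1.82 and -1.29 with a pseudocount of 10 (all genes -0.57), and -1.86 and -1.41 in reads thinned to the shallowest library (all genes -0.61).

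Outside aorta fewer genes were called in each tissue. In heart 6 genes were higher (6.03% of all genes) and none was lower (12.4%). The numbers were 3 higher (4.43%) and 1 lower (3.48%) in lung, 3 higher (6.35%) and none lower (4.11%) in kidney, and 3 higher (8.31%) and 3 lower (7.40%) in bladder. In stomach 6 were higher (13.4%) and 2 lower (6.93%), and in intestine 10 were higher (15.5%) and 4 lower (9.97%). In lung, kidney, bladder and stomach these counts, from limma on signal, are near the shares of all genes, so no result about the 40 genes is read from them. In heart the lack of lower genes depended on the aorta libraries. Without them genes were called both higher and lower in heart, with counts given below, without the share of all genes. Across the 7 tissues 33 of the 40 genes differed by the limma F test, against 59.6% of all genes, and without the aorta libraries 25 did, against 60.9%. The 7 genes that did not pass were Ifit2, Bst2, Xaf1, Dhx58 and Samhd1 of the type I class and Gbp3 and Psmb9 of the gamma class. Restricted to 1 tissue, meaning different from each of the other 6 by a log2 fold change of at least 1, were 5 genes that were higher (5.93% of all genes) and 16 that were lower (6.79%), the latter all in aorta.

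**Figure D1:**
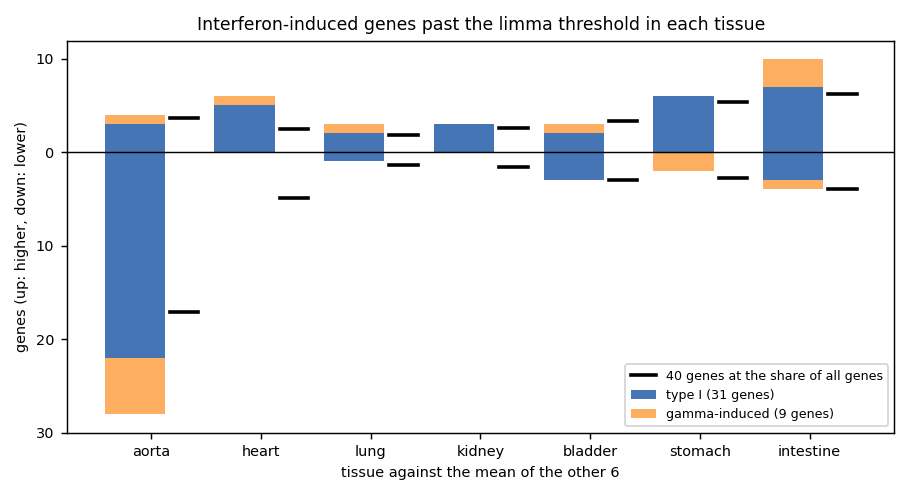
Number of the 40 genes higher (upward bars) or lower (downward bars) in each tissue against the mean of the other 6, at a limma adjusted p under 0.05, with the type I class in blue and the gamma class in orange. Black lines mark the number that 40 genes would reach at the share of all tested genes; aorta, with 28 lower genes, exceeds it most.

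The number of genes called depended on the analysis. With edgeR on rebuilt reads (TMM normalisation) 22 of the 40 genes were lower in aorta, against 15.3% of all genes, and 4 were higher. Over all genes that analysis called 2262 higher and 2594 lower in aorta, where limma called 1548 and 7235, and its median log2 fold change of all genes in aorta was -0.40, where limma gave -1.04. It differs from limma in its input, its model and its scaling together, while rescaling by the median of ratios alone gave a median of -0.96. After the reads of every library were thinned to the shallowest one, 25 of the 40 were lower in aorta, against 33.4% of all genes. Rescaling by the median of ratios gave 6 higher (5.13% of all genes) and 1 lower (13.9%) in heart and 0 higher (3.36%) and 1 lower (4.11%) in lung. By edgeR 5 were higher (12.4%) and 1 lower (4.16%) in bladder, and 7 higher (17.3%) and 4 lower (7.77%) in stomach. For genes with few or no reads in some aorta libraries the size of the aorta difference also depended on the analysis. The edgeR log2 fold changes were -3.98 for Ifit1, -3.24 for Irf7, -3.66 for Oasl2, -3.13 for Usp18, -3.17 for Cmpk2, -2.33 for Gbp7, -1.89 for Tap1, -1.65 for Gbp2 and -1.65 for Eif2ak2, each smaller by over 1.5 times than the limma values given for these genes below. In thinned reads they were -2.72 for Rsad2, -1.69 for Mx2 and -3.34 for Cxcl10. In every setting that was run, 17 of the 28 lower genes and 3 of the 4 higher ones (all but Ifitm3) passed the threshold.

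**Figure D2:**
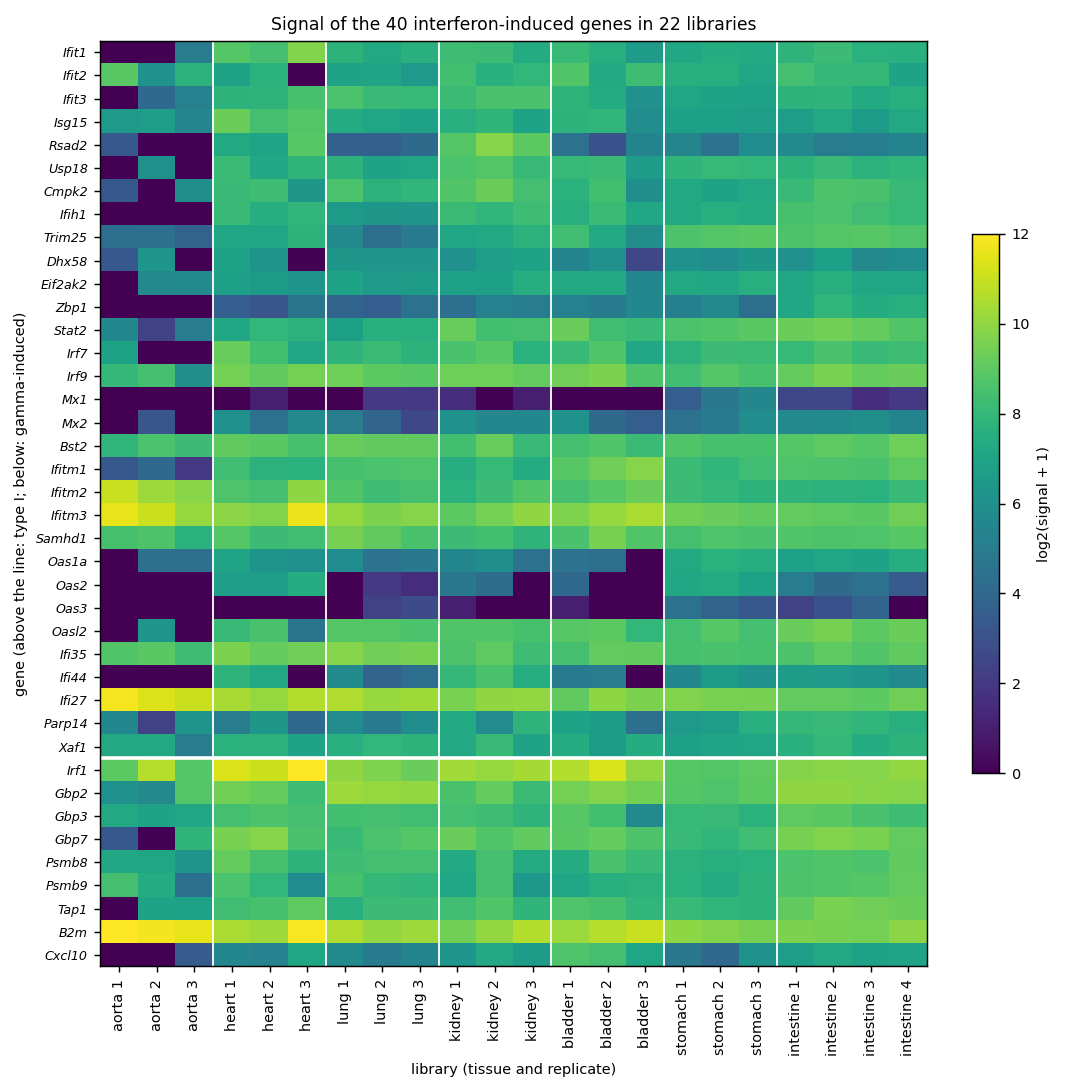
Signal of each of the 40 genes (rows) in each of the 22 libraries (columns) as log2(signal + 1), with type I genes above the thick line and gamma-induced genes below. Dark cells in the first 3 columns show genes at or near 0 in the aorta libraries, while Ifi27, Ifitm2, Ifitm3 and B2m are bright there.

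The transcription factors Stat2, Irf7 and Irf9 of the type I response were each lower in aorta. Stat2, a factor of the complex that binds the ISRE, gave a signal of 47, 4 and 33 in aorta and 145, 246 and 210 in heart. It was 111, 186 and 191 in lung, 597, 325 and 349 in kidney, and 620, 321 and 268 in bladder. In stomach Stat2 read 383, 426 and 487, and in intestine 629, 704, 567 and 432. Every aorta library lay below all 19 others. Stat2 was lower in aorta, with a log2 fold change of -4.02 ± 0.45 (SE, as after every fold change below; limma adjusted p = 2.13e-06) and higher in intestine by 1.63 ± 0.40 (limma adjusted p = 0.0055). Irf7, which amplifies the type I response, had 122, 0 and 0 in aorta, 593, 328 and 146 in heart, and 224, 286 and 216 in lung. It had 379, 475 and 201 in kidney, 269, 423 and 142 in bladder, 210, 300 and 288 in stomach, and 261, 370, 279 and 306 in intestine. The 3 aorta libraries were the lowest, with reads in aorta 1 only (13 reads), and the fold change was -5.82 ± 0.89 (limma adjusted p = 5.11e-05). Irf9, the DNA-binding partner of Stat2, was lower in aorta by -1.66 ± 0.34 (limma adjusted p = 0.000669; not past the threshold with array weights), with means between 375 in stomach and 665 in heart elsewhere and 223 ± 151 (SD, n = 3) in aorta.

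Of the sensors of viral nucleic acid, Ifih1 and Zbp1 had no read in aorta, while Eif2ak2 and Dhx58 were detected there. Ifih1, a sensor of long double-stranded RNA, was also called higher in 5 of the other tissues. It gave 0 in each aorta library, 273, 178 and 235 in heart, 92, 80 and 76 in lung, and 289, 234 and 308 in kidney. In bladder it gave 182, 289 and 140, in stomach 155, 185 and 168, and in intestine 363, 393, 317 and 261. The groups of aorta and of each other tissue did not overlap, and lung was the lowest of the rest. Set against the floor of 3 reads over the aorta group, a mean signal of 4.58, the gene was at least 18.1-fold higher in lung and at least 72.9-fold higher in intestine. Intestine was above the mean of the other tissues by 2.15 ± 0.26 (limma adjusted p = 3.56e-06), and also without the aorta libraries (0.90 ± 0.19, limma adjusted p = 0.00246). Calls of Ifih1 as higher in heart, kidney, bladder and stomach were lost without the aorta libraries, and those of bladder (1.26) and stomach (1.03) changed sign, to -0.01 (limma adjusted p = 0.988) and -0.25 (limma adjusted p = 0.441). Intestine and kidney, its 2 highest tissues, did not differ past the threshold (limma adjusted p = 0.835).

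Trim25, a ubiquitin ligase known for its action on the sensor Rigi, was highest in the gut. Its signal was 396, 444 and 483 in stomach and 395, 439, 465 and 409 in intestine. In kidney it was 138, 154 and 209, in heart 133, 132 and 218, and in bladder 319, 156 and 60. Lung had 51, 19 and 30, and aorta 19, 20 and 13. The 7 gut libraries lay above all 15 others, without overlap, and lung overlapped only with aorta and came just below bladder 3. Trim25 was higher in stomach by 2.16 ± 0.38 (limma adjusted p = 0.000336) and in intestine by 2.11 ± 0.34 (limma adjusted p = 0.000115). It was lower in lung by -2.27 ± 0.38 (limma adjusted p = 0.000784) and in aorta by -3.22 ± 0.38 (limma adjusted p = 3.57e-06). Each of these calls held in every setting run.

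Zbp1, a sensor of Z-form nucleic acid that can set off cell death, was restricted to intestine among the higher genes. Its signal was 145, 237, 170 and 181 in intestine. It was 35, 49 and 19 in stomach, 38, 29 and 47 in bladder, and 20, 37 and 33 in kidney. Lung gave 14, 11 and 22, heart 11, 8 and 24, and aorta 0 in all 3 libraries. The lowest intestine library was well above the highest of the other 18. On the log2 scale intestine was higher by 3.67 ± 0.39 (limma adjusted p = 8.54e-07), and 2.90 ± 0.37 without the aorta libraries (limma adjusted p = 1.38e-05). In heart, the lowest tissue after aorta, Zbp1 was at least 3.13-fold higher than the aorta floor. The kinase Eif2ak2, which halts translation on double-stranded RNA, was lower in aorta by -3.14 ± 0.75 (limma adjusted p = 0.00226; not with array weights) and had means between 91.0 in heart and 159.7 in stomach elsewhere. Dhx58, a regulator of these sensors, had means of 28.7 to 97.0 and did not pass the F test.

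Summed signal of 8 epithelial markers was 9386 to 11924 in stomach and 6017 to 8620 in intestine, where Trim25 and Zbp1 were high, and at most 3209 in any library of the other tissues. None of the 8 was at 0 throughout stomach or intestine, and 4 were at 0 in all heart libraries. Their part in these results was not tested.

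Among effectors that act on viral RNA and on nucleotides, Rsad2 was higher in heart and kidney, Ifit1 and Isg15 in heart, and Ifit3, Cmpk2 and Usp18 passed in aorta only in the limma fit of signal. Rsad2 (viperin), which makes a chain-terminating nucleotide, had 444, 915 and 504 in kidney and 154, 126 and 477 in heart. It had 12, 12 and 17 in lung, 21, 7 and 40 in bladder, and 43, 23 and 56 in stomach. Intestine gave 50, 33, 34 and 42, and aorta 9, 0 and 0. Kidney and heart overlapped only through heart 3, and both lay above every library of the other 5 tissues. Rsad2 was higher in kidney by 4.61 ± 0.63 (limma adjusted p = 4.46e-05) and in heart by 2.88 ± 0.63 (limma adjusted p = 0.00395). The heart call was lost without heart 3, and kidney and heart did not differ past the threshold (heart over kidney -1.48 ± 0.83, limma adjusted p = 0.276). Aorta held 1 read. Set against that 1 read at the worth of a read over the pooled aorta libraries, which weights them by depth and not equally as the mean signal of 3.0 does, the kidney mean was 407-fold higher, with a counting interval of 73.1 to 16100.

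Cmpk2, a mitochondrial nucleotide kinase, lies beside Rsad2, within 37.1 kb on chromosome 12. Both genes had their highest mean in kidney and their lowest in aorta, and the difference between the genes was not tested. Its signal was 423, 629 and 343 in kidney, 275, 307 and 81 in heart, and 385, 206 and 235 in lung. In bladder it was 205, 332 and 62, in stomach 156, 122 and 148, in intestine 284, 406, 375 and 275, and in aorta 9, 0 and 59. In the limma fit Cmpk2 passed only in aorta, where it was lower by -4.81 ± 0.73 (limma adjusted p = 4.81e-05). Cmpk2 was also higher in kidney by edgeR (1.54, adjusted p = 0.0152) and in thinned reads (2.05, limma adjusted p = 0.0305). In lung, where Rsad2 had a mean of 13.7, Cmpk2 had a mean of 275 ± 96.1 (SD, n = 3).

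Ifit1, a binder of foreign RNA ends, was highest in heart, with 458, 351 and 857. It was 312, 301 and 164 in kidney, 216, 153 and 198 in lung, and 276, 184 and 94 in bladder. Stomach had 147, 169 and 163, intestine 220, 296, 202 and 195, and aorta 0, 0 and 33. The heart libraries lay above every other one. Ifit1 was higher in heart by 2.39 ± 0.68 (limma adjusted p = 0.02), a call lost without heart 1 or heart 3, and lower in aorta by -6.15 ± 0.68 (limma adjusted p = 1.77e-06). Ifit3, a related gene, had 0, 16 and 36 in aorta, 217, 225 and 364 in heart, and 387, 282 and 266 in lung. It had 291, 372 and 381 in kidney, 224, 166 and 67 in bladder, 135, 120 and 114 in stomach, and 213, 219, 163 and 183 in intestine. Ifit3 was lower in aorta by -4.63 ± 0.64 (limma adjusted p = 1.76e-05), the only tissue that passed in this fit. By edgeR Ifit3 was also higher in lung (1.15, adjusted p = 0.0209) and kidney (1.35, adjusted p = 0.00448), as it was in thinned reads (1.25 and 1.49, limma adjusted p = 0.0416 and 0.0134). Without the aorta libraries it was higher in kidney (0.85, limma adjusted p = 0.0479) and lower in stomach (-0.94, limma adjusted p = 0.0188). Ifit2, of the same cluster, ran from 490 to 69 within aorta, above or among the other tissues, and did not pass the F test. Ifit2, Ifit3 and Ifit1 lie within 99.3 kb on chromosome 19, and reads of such related genes could be split between them by the counting.

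Isg15, a ubiquitin-like modifier, was 635, 349 and 437 in heart. Its means in the other tissues ran from 77.7 ± 31.6 in aorta to 178 ± 52.6 in kidney (SD, n = 3 each), and every heart library lay above all others. Isg15 was higher in heart by 1.91 ± 0.37 (limma adjusted p = 0.00171), in every setting run, but the pair of heart and kidney did not pass (1.41 ± 0.49, limma adjusted p = 0.0818). Usp18, which removes Isg15 from proteins and dampens the type I receptor, had 0, 65 and 0 in aorta, 285, 144 and 227 in heart, and 215, 119 and 130 in lung. It had 391, 448 and 269 in kidney, 258, 288 and 94 in bladder, 230, 266 and 245 in stomach, and 217, 273, 207 and 234 in intestine. In the limma fit only aorta passed, by -5.79 ± 0.78 (limma adjusted p = 1.45e-05), and 16 reads in aorta 2 were all that this group held. Usp18 was also higher in kidney by edgeR (1.32, adjusted p = 0.0446) and in thinned reads (1.46, limma adjusted p = 0.0469).

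Summed signal of 12 endothelial markers was 9142 to 10757 in heart and 7430 to 13806 in kidney, against 5915 to 8108 in lung, 5504 to 6548 in stomach, 4298 to 6463 in intestine, 1728 to 3870 in aorta and 1895 to 3593 in bladder. None of the 12 was at 0 throughout a tissue. For 8 pericyte markers the sum was 15431 to 45115 in heart, 9502 to 24174 in kidney and 11705 to 13737 in intestine. It was 2124 to 14267 in bladder, 3749 to 9785 in aorta, 6441 to 7405 in stomach and 4579 to 4991 in lung. The part of either list in the heart and kidney results was not tested.

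Of the OAS enzymes, which sense double-stranded RNA and activate RNase L through oligoadenylates, Oas1a, Oas2 and Oas3 had their highest means in stomach. Oas2 gave 140, 164 and 114 in stomach and 103, 105 and 170 in heart, and at most 33 in any other library. It was higher in stomach by 4.32 ± 0.84 (limma adjusted p = 0.000895) and in heart by 4.12 ± 0.84 (limma adjusted p = 0.00227), and these tissues did not differ past the threshold (limma adjusted p = 0.94). Oas3, its neighbour within 47.3 kb on chromosome 5, was 21, 13 and 9 in stomach and 0 in all aorta and heart libraries. At this low level stomach was higher by 3.09 ± 0.59 (limma adjusted p = 0.000792). Oas3 passed the filter on low values only through stomach 1, stomach 2 and intestine 3, and not without any 1 of them. These are libraries where it was high, so the p-value is no independent support. Oas1a had means of 177 ± 23.5 in stomach (SD, n = 3) and 138 ± 27.1 in intestine (SD, n = 4) and between 13.3 and 88.7 elsewhere; its call in stomach (limma adjusted p = 0.0404) was lost in 10 of the 22 fits that left out 1 library.

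Oasl2, a relative of these enzymes, was detected in 1 of 3 aorta libraries (0, 77 and 0). It was 274, 376 and 24 in heart, 456, 439 and 389 in lung, and 425, 432 and 366 in kidney. In bladder it was 467, 501 and 244, in stomach 337, 467 and 336, and in intestine 615, 741, 505 and 630. All 4 intestine libraries lay above all others, although the intestine contrast did not pass by limma (it did by edgeR, 1.34, adjusted p = 0.0143, and in thinned reads, 1.79, limma adjusted p = 0.0122), and heart 3 fell among the aorta libraries. Oasl2 was lower in aorta by -6.39 ± 0.89 (limma adjusted p = 1.92e-05).

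The MX proteins, dynamin-like GTPases that trap viral particles, differed from each other. Mx1 was 11, 27 and 46 in stomach and 5, 5, 2 and 3 in intestine. It was 0, 3 and 3 in lung, 2, 0 and 1 in kidney, 0, 1 and 0 in heart, and 0 in every aorta and bladder library. The lowest stomach library lay above all 19 others, and stomach was higher by 3.86 ± 0.45 (limma adjusted p = 3.42e-06). The levels are low, and Mx1 passed the filter on low values only through the stomach libraries, and not without any 1 of them. These are the libraries where it was high, so the p-value is no independent support. Mx2, within 113.9 kb on chromosome 16, showed no such peak, with 64, 22 and 49 in heart, 33, 14 and 5 in lung, and 66, 46 and 48 in kidney. It had 71, 17 and 11 in bladder, 21, 30 and 58 in stomach, 49, 52, 59 and 42 in intestine, and 0, 8 and 0 in aorta. Aorta was lower by -4.01 ± 0.67 (limma adjusted p = 0.000126; not past the threshold with array weights), from 2 reads in all.

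The IFITM genes, which encode membrane proteins that block viral entry, split within a cluster of 55.9 kb on chromosome 7. Ifitm1 had 9, 16 and 3 in aorta, 323, 208 and 202 in heart, and 362, 385 and 408 in lung. It had 176, 261 and 166 in kidney, 478, 663 and 907 in bladder, 291, 241 and 315 in stomach, and 414, 406, 376 and 524 in intestine. Aorta did not overlap with any other tissue, and bladder overlapped only with intestine. Ifitm1 was lower in aorta by -5.26 ± 0.32 (limma adjusted p = 1.2e-09) and higher in bladder by 2.01 ± 0.32 (limma adjusted p = 0.000247), although bladder and intestine did not differ past the threshold (limma adjusted p = 0.331).

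In signal Ifitm2 ran the other way, with 2044, 1212 and 925 in aorta. Its reads there (217, 299 and 280) were fewer than in each of the 18 deeper libraries. The signal was 409, 352 and 987 in heart, 434, 308 and 357 in lung, and 204, 299 and 432 in kidney. In bladder it was 346, 467 and 620, in stomach 297, 253 and 216, and in intestine 225, 210, 204 and 278. Only heart 3 reached the range of aorta, where Ifitm2 was higher by 1.96 ± 0.29 (limma adjusted p = 3.86e-05). Ifitm3 was also higher in aorta, by 1.22 ± 0.32 (limma adjusted p = 0.00441), a call lost without aorta 1 and with array weights. Ifi27, a small membrane protein and the type I gene with the highest mean signal, had 3627, 2651 and 2091 in aorta and 1362, 1097 and 1577 in heart. It had 1506, 1142 and 1259 in lung, 774, 1024 and 1052 in kidney, and 533, 982 and 786 in bladder. Stomach had 848, 768 and 731, and intestine 547, 551, 508 and 670. Aorta did not overlap with any tissue, and Ifi27 was higher there by 1.59 ± 0.18 (limma adjusted p = 2.28e-06) and lower in intestine by -1.05 ± 0.16 (limma adjusted p = 7.1e-05).

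Of the 4 genes higher in aorta, Ifitm2, Ifitm3 and B2m had fewer reads in each aorta library than in the 18 deeper ones. For Ifi27, aorta 2 and aorta 3 (654 and 633 reads) exceeded bladder 3 (586) but no other deeper library. Heart 3, also shallow, held 195 reads of Ifi27, 122 of Ifitm2, 396 of Ifitm3 and 471 of B2m. Every aorta library held more than heart 3 for Ifi27, Ifitm2 and B2m, as did aorta 2 alone for Ifitm3. Among the 40 genes, 10 reached at least 0.5 rebuilt reads per exonic base in some library, as did 16.8% of tested genes with a known length, and are called near a ceiling of reads. B2m spanned 471 to 1695 reads, a 3.60-fold range, while its signal spanned 8.39-fold, and its aorta libraries held 625 to 916 reads. B2m signal was highest in aorta 1, heart 3, aorta 2 and aorta 3, the libraries in which 1 read was worth most. Ifitm3 spanned 333 to 1195 reads (3.59-fold) against 6.55-fold in signal, and Ifitm2 spanned 122 to 486 reads (3.98-fold) against 10.02-fold. In the 18 deeper libraries Ifitm2 held 381 to 486 reads, Ifitm3 915 to 1195 and B2m 1375 to 1695. The depth of these libraries ran from 4389363 to 12708428 rebuilt reads. Ifi27 spanned 195 to 1722 reads (8.83-fold) against 7.14-fold in signal, with 385 to 654 reads in aorta. The part of the ceiling in the aorta calls of these 4 genes was not tested. Ifitm1 also reached 0.86 reads per base, but its aorta libraries held only 1 to 4 reads. The other genes near the ceiling were Isg15, Irf1, Bst2, Gbp2 and Ifi35.

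**Figure D3:**
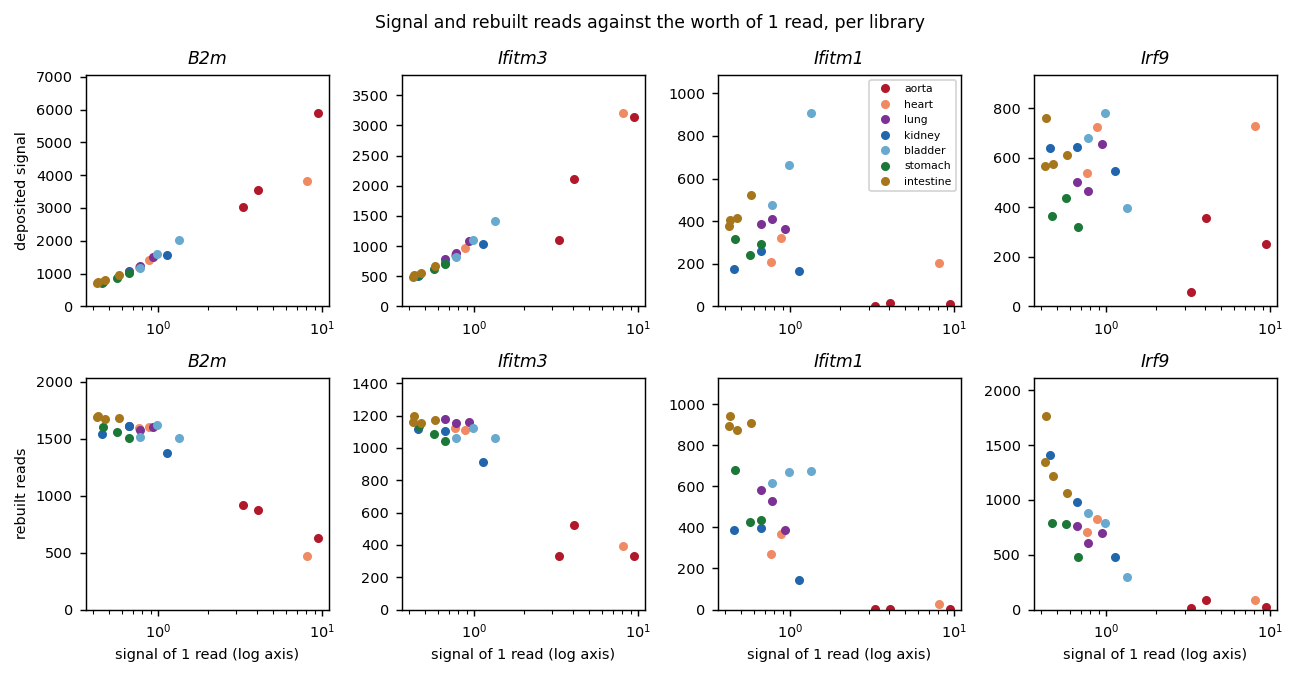
Deposited signal (upper row) and rebuilt reads (lower row) of B2m, Ifitm3, Ifitm1 and Irf9 in each library, against the signal worth of 1 read on a log axis, coloured by tissue. Signal of B2m and Ifitm3 tends to be higher where 1 read is worth more. Reads of B2m lie between 471 and 1695, with the fewest in the shallow libraries, and Ifitm1 falls to 1 to 4 reads in aorta.

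Among the gamma-induced genes, Irf1, the transcription factor that carries the response to further genes, was highest in heart. Its means were 3803 ± 2480.5 in heart, 1744 ± 775 in bladder, 1235 ± 123 in kidney, 865 ± 667 in aorta and 812 ± 211 in lung (SD, n = 3 each). It was 944 ± 81.2 in intestine (SD, n = 4) and 481 ± 39.8 in stomach (SD, n = 3). Heart gave 2648, 2110 and 6650, and of the other libraries only bladder 2, at 2591, reached this range. Irf1 was higher in heart by 1.89 ± 0.33 (limma adjusted p = 0.000597) and lower in stomach by -1.37 ± 0.33 (limma adjusted p = 0.00535), in every setting run.

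The gamma-induced GTPases, which attack the membranes of intracellular pathogens, were lower in aorta for each of the 3 genes. Gbp2 had 66, 49 and 436 in aorta, 689, 570 and 307 in heart, and 1192, 1097 and 1057 in lung. It had 375, 570 and 286 in kidney, 724, 881 and 688 in bladder, 459, 419 and 497 in stomach, and 1014, 1019, 931 and 893 in intestine. Lung lay above all other tissues without overlap, and aorta 3 overlapped with heart, kidney and stomach. Gbp2 was lower in aorta by -2.51 ± 0.40 (limma adjusted p = 7.98e-05). Its lung call (1.33 ± 0.40, limma adjusted p = 0.0475) was kept in only 6 of the 22 fits that left out 1 library. The call was lost without any 1 lung library, with median-of-ratios rescaling and with a replicate block. Lung and intestine did not differ past the threshold (limma adjusted p = 0.811).

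Gbp7 had 9, 0 and 231 in aorta, 737, 907 and 372 in heart, and 269, 390 and 455 in lung. It had 610, 425 and 536 in kidney, 492, 577 and 400 in bladder, 269, 239 and 321 in stomach, and 732, 850, 761 and 562 in intestine. Of the 71 reads that aorta held, 70 were in aorta 3, and the group was still lower by -5.16 ± 0.84 (limma adjusted p = 8.91e-05). Gbp3 was lower in aorta by -1.14 ± 0.40 (limma adjusted p = 0.024; lost without aorta 2 or aorta 3, with array weights and in thinned reads) but did not pass the F test. Gbp7, Gbp3 and Gbp2 lie within 107.7 kb on chromosome 3, and these related genes can share reads.

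The antigen processing genes Tap1, Psmb8 and Psmb9 had their highest means in intestine, and B2m in aorta. Tap1, a subunit of the transporter that carries peptides into the endoplasmic reticulum, had 541, 772, 681 and 622 in intestine. It had 321, 358 and 518 in heart, 181, 303 and 296 in lung, and 323, 430 and 232 in kidney. Bladder gave 412, 362 and 235, stomach 280, 237 and 218, and aorta 0, 122 and 116. Every intestine library lay above all others and every aorta library below all others. Tap1 was lower in aorta by -3.82 ± 0.84 (limma adjusted p = 0.00131). Its intestine contrast did not pass (1.71 ± 0.75, limma adjusted p = 0.105) but did without the aorta libraries (1.10 ± 0.20, limma adjusted p = 0.000596), with edgeR (adjusted p = 0.00118) and in thinned reads (limma adjusted p = 0.0196). Psmb8, an immunoproteasome subunit, was higher in intestine by 0.91 ± 0.27 (limma adjusted p = 0.0173; lost without intestine 2 or 4 and in thinned reads) and lower in aorta by -1.35 ± 0.30 (limma adjusted p = 0.00136; not with array weights). Psmb9, another subunit, had a mean of 459 ± 64.9 in intestine (SD, n = 4) and 176 to 284 in the other tissues, and did not pass the F test. It was higher in intestine without the aorta libraries (1.25 ± 0.38, limma adjusted p = 0.0221) and by edgeR (1.11, edgeR adjusted p = 0.041). The same held in thinned reads (1.62 ± 0.44, limma adjusted p = 0.00948), though the F test did not pass in any of these fits. Psmb9, Tap1 and Psmb8 lie within 19.5 kb on chromosome 17, where Psmb9 and Tap1 overlap by 212 bases on opposite strands.

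B2m had the highest mean signal of the gamma class and, per kilobase of exon, of all 40 genes, at a mean signal of 1936 per kb against 1598 for Ifitm3. Its signal was 5888, 3551 and 3025 in aorta, 1405, 1215 and 3810 in heart, and 1499, 1066 and 1217 in lung. It was 702, 1063 and 1559 in kidney, 1174, 1597 and 2014 in bladder, 1006, 879 and 744 in stomach, and 793, 732, 712 and 971 in intestine. Aorta overlapped only with heart 3. B2m was higher in aorta by 1.76 ± 0.28 (limma adjusted p = 6.87e-05) and lower in intestine by -0.95 ± 0.25 (limma adjusted p = 0.00789), with the ceiling on reads described above. Its intestine libraries held 1672 to 1695 reads, more than any library of another tissue.

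Cxcl10, a chemokine that draws activated T cells, was highest in bladder, with 420, 345 and 133. It had 79, 151 and 97 in kidney, 103, 150, 116 and 129 in intestine, and 46, 39 and 138 in heart. Lung gave 53, 29 and 41, stomach 27, 16 and 71, and aorta 0, 0 and 10. Bladder 1 and 2 lay above every other library, while bladder 3 overlapped with kidney, intestine and heart. Cxcl10 was higher in bladder by 2.87 ± 0.63 (limma adjusted p = 0.0036), in every setting run, and lower in aorta by -5.20 ± 0.63 (limma adjusted p = 4.79e-06). Bladder and intestine did not differ past the threshold (limma adjusted p = 0.393). Cxcl10 lies wholly within Art3 on the opposite strand, and whether the counting used strand is not given in the sources used here. Among the 40 genes, 10 overlap another gene. B2m overlaps Patl2 by 5398 bases on the opposite strand, and Irf1, Usp18 and Dhx58 also overlap noncoding or unconfirmed genes on the opposite strand.

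**Figure D4:**
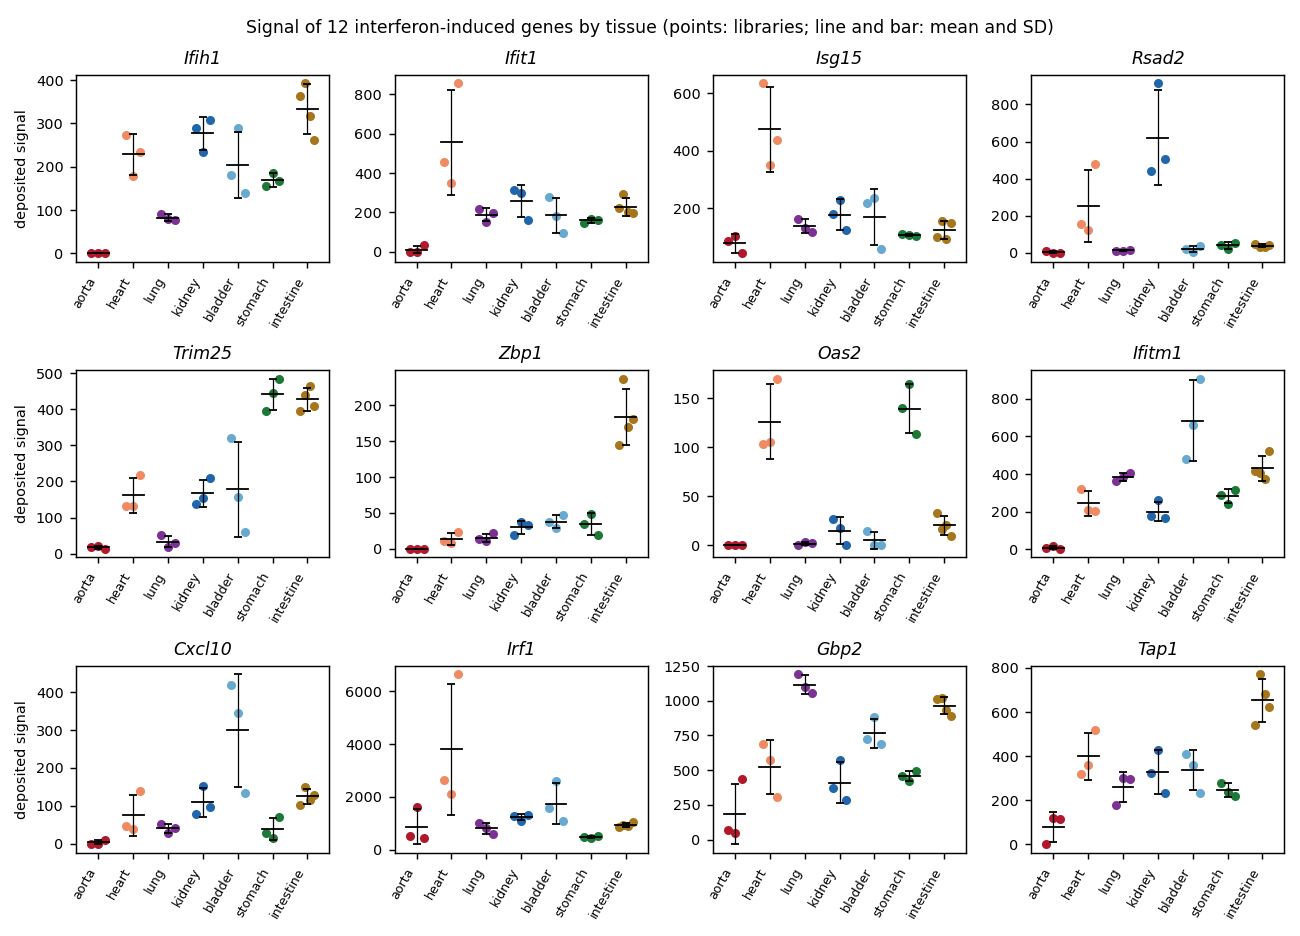
Deposited signal of 12 of the genes in each library (points), with the mean and SD of each tissue (black). Rsad2 is high in kidney and heart, Trim25 in stomach and intestine, Zbp1 in intestine, Oas2 in heart and stomach, and Ifitm1 and Cxcl10 in bladder.

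Summed signal of 16 leukocyte markers was 2766 to 5775 in bladder, where Cxcl10 and Ifitm1 were high, and 1276 to 1654 in lung. It was 474 to 1536 in aorta, 99 to 725 in kidney, 190 to 274 in intestine, 150 to 203 in stomach and 32 to 163 in heart. No marker was at 0 throughout bladder, and 8 of 16 were at 0 in all heart libraries. For 8 fibroblast markers the sum was 32100 to 47220 in bladder and 24043 to 61563 in aorta, and at most 25117 in any library of the other tissues. The part of either list in the bladder results was not tested.

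The other genes were described by range. Among the type I genes Ifi44 had no read in aorta and a mean of 270.3 ± 99.3 in kidney (SD, n = 3), a kidney call (limma adjusted p = 0.0395) lost in 12 of the 22 fits without 1 library. Ifi35 was higher in lung by 0.76 ± 0.20 (limma adjusted p = 0.0215; lost without any 1 lung library and after median-of-ratios rescaling). Parp14 was higher in intestine by 2.00 ± 0.60 (limma adjusted p = 0.0194; lost without intestine 1, 2 or 3), with a mean of 238 ± 38.8 there (SD, n = 4) and 41.3 to 147 elsewhere. Bst2, which tethers budding virus, Xaf1 and Samhd1, which degrades nucleotides, stayed within means of 306 to 554, 111 to 216 and 283 to 556 and did not pass the F test, while Bst2 was lower in aorta by -0.53 ± 0.22 (limma adjusted p = 0.0475), a call lost in 16 of the 22 fits without 1 library. By mean log2 signal, intestine was the highest tissue for 10 genes, kidney for 8, stomach for 6, lung for 5, aorta for 4, heart for 4 and bladder for 3, but the 2 highest tissues differed past the threshold for only 5 genes: Mx1, Ifi27, Ifitm2, B2m and Zbp1. Aorta was the lowest tissue for 30 genes. These tallies of highest and lowest tissues are given without the share of all tested genes. Of all tested genes, 42.8% were called lower in aorta by limma on signal, and the aorta libraries were shallow. The tallies alone therefore do not show whether the interferon-induced genes differ from all genes.

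**Figure D5:**
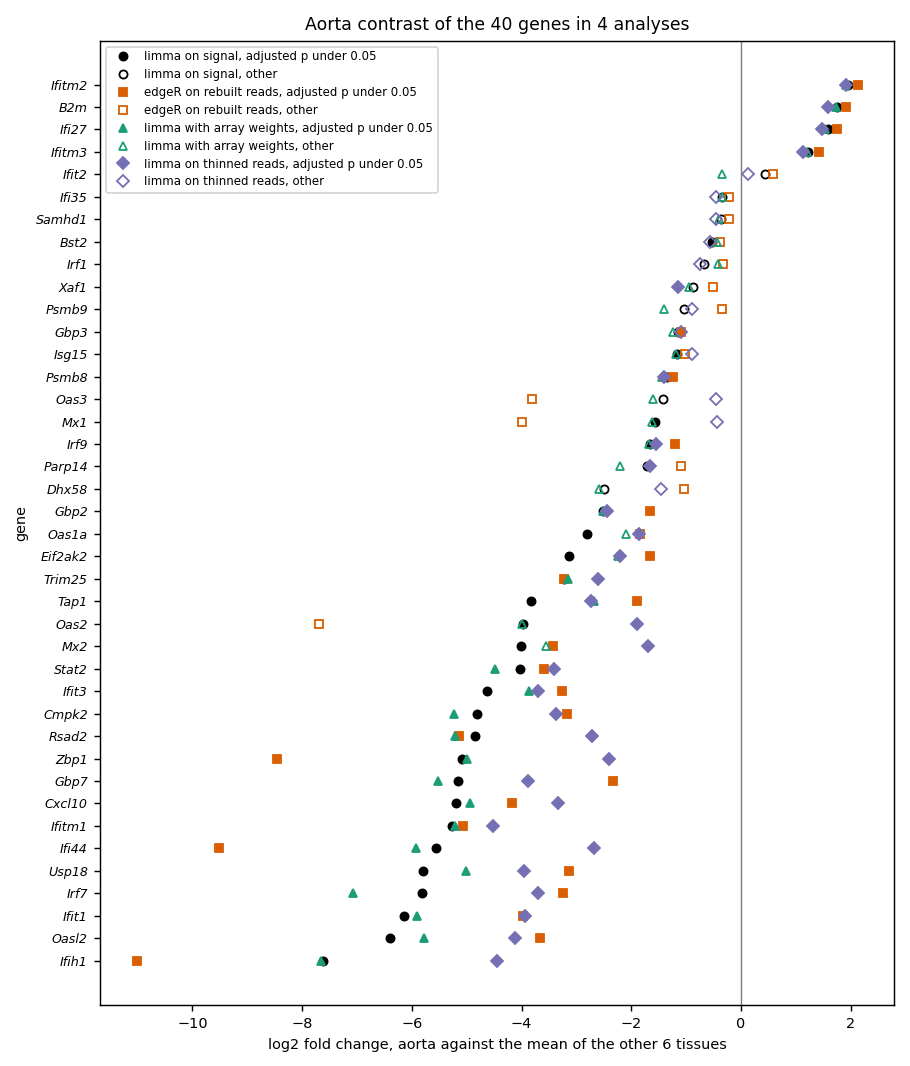
Log2 fold change of each of the 40 genes in aorta against the mean of the other 6 tissues, from limma on signal, edgeR on rebuilt reads, limma with array weights and limma on thinned reads. Filled symbols have an adjusted p under 0.05; the 4 highest genes are Ifitm2, B2m, Ifi27 and Ifitm3 in each analysis.

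The upstream pathway was measured from a list of 15 receptors, kinases and factors, of which 13 passed the F test (59.6% of all genes). In aorta 8 of the 15 were lower (42.8%) and none was higher (9.15%), and in intestine 4 were higher (15.5%) and 2 lower (9.97%), so the aorta count is near the share of all genes. Ifnar1, a chain of the type I receptor, was lower in aorta by -1.43 ± 0.38 (limma adjusted p = 0.00442), with a mean of 231 ± 137 there (SD, n = 3) and 383 to 765 elsewhere. Ifnar2, the other chain, was higher in intestine by 0.90 ± 0.26 (limma adjusted p = 0.0171) and lower in heart by -1.04 ± 0.30 (limma adjusted p = 0.0203). Of the gamma receptor, Ifngr1 was lower in kidney by -0.70 ± 0.18 (limma adjusted p = 0.015) and Ifngr2 lower in stomach by -0.62 ± 0.16 (limma adjusted p = 0.0101), and neither passed in aorta. Irf8, a factor best known from myeloid cells, was higher in bladder by 2.48 ± 0.79 (limma adjusted p = 0.039) and in intestine by 2.88 ± 0.70 (limma adjusted p = 0.00512). Of 18 interferon genes listed, Ifnb1 and Ifnz were found in the table, with tissue means of at most 1.3 and 2.3, and neither passed the filter; the others were not analysed here.

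Of 10 tested genes of nucleic acid sensing, 7 were lower in aorta (42.8% of all genes) and 4 higher in intestine (15.5%). Sting1, the adaptor of DNA sensing, was lower in aorta by -6.14 ± 0.59 (limma adjusted p = 3.22e-07) and higher in bladder by 2.42 ± 0.59 (limma adjusted p = 0.00769). Tlr3, an endosomal receptor of double-stranded RNA, was at 0 in aorta and had means of 52.7 to 155 elsewhere. Of 13 further gamma-induced GTPases, 11 were lower in aorta (42.8%), 6 higher in intestine (15.5%) and 4 higher in heart (6.03%). Iigp1 reached a mean of 2359 in bladder and 139 in stomach, the latter lower by -2.71 ± 0.34 (limma adjusted p = 8.06e-06). Among 19 genes of MHC class I and peptide loading, 9 were lower and 4 higher in aorta, against 42.8% and 9.15% of all genes, so the lower count is near that share, the higher ones being H2-D1, Calr, Pdia3 and Psme2, all near the ceiling on reads. Nlrc5, which activates MHC class I genes, was 136, 174, 96 and 40 in intestine and 0 in all aorta libraries, and was higher in intestine by 3.34 ± 0.81 (limma adjusted p = 0.00497).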

How the data were processed

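RNA of sorted arterial smooth muscle cells was sequenced from at most 10 ng of total RNA with SMART-Seq v4, per the labels' protocols. The submitters' processing notes name the build mm39, featureCounts 2.0.4, STAR 2.7.10a, Trimmomatic 0.39, DESeq, DESeq2 1.36.0 and Picard 3.0.0, with no order or role. The deposited values are a signal: judging by the values, whole numbers that were scaled for each library. The worth of 1 read was found per library by a likelihood search over steps of 0.3 to 12, and signal divided by it gave rebuilt reads; the result for bladder 2 is less certain.

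The main test was the trend method of limma 3.58.1 in R 4.3.3, run for 16917 genes on log2(signal + 1), with all 22 libraries in 1 fit. Fold changes on this scale depend on the pseudocount, and for genes with few aorta reads they can exceed those from edgeR or thinned reads. The design had foreseen counts, and since the values are signal its alternative for signal was used. Alternatives were a pseudocount of 10, no filter, median-of-ratios rescaling, edgeR 4.0.16 (quasi-likelihood) on rebuilt reads, array weights, thinned reads, no aorta libraries, each library left out, and a block. A fit without aorta and heart 3 was added after seeing the data. Exonic lengths came from GENCODE M21 (GRCm38), for 96.2% of genes. The limma script was tested on simulated data.

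The genes, lists and rules were chosen with earlier results of these data known. Values in every library are given for the 6 genes past the F test with the largest range of tissue means and a mean of at least 100, for genes restricted to 1 tissue and for the highest mean of each class. From pathway lists, the widest ranges, the highest means and the receptors were eligible. A gene that these rules made eligible is not reported here.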

Additional observations from a re-analysis of the deposited data

How the results depend on the processing

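Counts of genes called moved with the processing. The counts in this section are given without the share of all tested genes called in the same setting. That share moved too. Of all tested genes, 42.8% were lower in aorta by limma on signal and 15.3% by edgeR on rebuilt reads. The counts alone therefore do not show whether the interferon-induced genes moved apart from all genes. Of single genes Ifih1 changed sign: without the aorta libraries it was -0.01 in bladder and -0.25 in stomach, and -0.24 in stomach without heart 3 as well, none past the threshold. With a pseudocount of 10, 3 genes were lower in lung and 6 higher in kidney. With no filter, 1 was lower in stomach. Median-of-ratios rescaling gave 1 lower in heart, 0 higher in lung and 1 lower in stomach. edgeR on rebuilt reads gave 7 higher in kidney, 5 higher and 1 lower in bladder, 4 lower in stomach and 3 restricted higher. Array weights gave 17 lower in aorta, 10 higher in heart, 7 higher and 4 lower in lung, 9 higher in kidney, 1 lower in bladder, 14 higher and 8 lower in stomach, 28 higher in intestine and 2 restricted higher. Thinned reads gave 3 lower in lung, 6 higher in kidney, 1 lower in stomach and 3 restricted higher. Without the aorta libraries, 10 were higher and 8 lower in heart, 6 lower in lung, 2 lower in kidney, 7 lower in stomach and 2 restricted lower. Without the aorta libraries and heart 3, 2 were lower in heart, 11 lower in lung, 5 higher and 3 lower in kidney, 6 higher and 7 lower in bladder, 9 lower in stomach, 3 restricted higher and 2 restricted lower. The cause was not tested.

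Leaving out 1 library at a time gave 3 to 4 genes higher and 25 to 30 lower in aorta, 5 to 9 and 0 to 2 in heart, 0 to 4 and 1 to 2 in lung, 2 to 8 and 0 to 0 in kidney, 2 to 6 and 0 to 4 in bladder, 2 to 9 and 1 to 6 in stomach, and 5 to 15 and 3 to 4 in intestine. The F test gave 30 to 34, restricted higher 2 to 5 and restricted lower 13 to 18. No gene was called higher in lung without any 1 lung library. Without aorta 1, 2 or 3, 5, 7 and 8 were higher in kidney, and without aorta 2 or 3, 6 and 5 were higher in bladder. Without bladder 3 none was lower in bladder. Without stomach 1, 2 or 3, 2, 2 and 3 were higher in stomach, and without intestine 1, 2 or 3, 6, 5 and 6 were higher in intestine.

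Over 78 contrasts of single genes (the 73 called and, for each gene, its largest), 2338 values under alternatives comprised 2075 on the same side of the threshold, 236 that lost a call, 24 that gained one and the 3 of Ifih1. A replicate block gave 1 lower in heart, 1 higher in lung, 1 lower in bladder, 1 lower in stomach and 6 higher in intestine. The labels' numbers did not pair the libraries: of 63 same-numbered pairs, 3 had a correlation of deviations over 0.1 (median -0.01), and 3 of 22 libraries correlated best with their own number. Depth limits aorta most, where 3 reads over the group correspond to a mean signal of 4.58, against 0.352 in intestine.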

Other observations

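The catalytic subunits of the constitutive proteasome, which the immunoproteasome subunits Psmb8 and Psmb9 replace, were higher in aorta for 3 of 3 genes, against 9.15% of all tested genes. Psmb6 had a mean signal of 3144 in aorta and 680 in intestine, with a difference in aorta on the log2 scale of 1.64 ± 0.20 (limma adjusted p = 5.86e-06), and Psmb5 was higher there by 0.94 ± 0.25 (limma adjusted p = 0.00527). Psmb5 and Psmb6 are near the ceiling on reads, whose part was not tested.

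Of 7 tested MHC class II genes, which present peptides on antigen-presenting cells, 2 were higher in bladder (8.31% of all genes), 3 lower in stomach (6.93%) and 3 lower in aorta (42.8%, near the count seen). H2-Ab1 had means of 1064 in bladder and 50.3 in stomach, with log2 fold changes of 2.41 ± 0.57 (limma adjusted p = 0.00606) and -2.65 ± 0.57 (limma adjusted p = 0.00208). H2-Aa was higher in bladder by 3.33 ± 0.77 (limma adjusted p = 0.00544). Summed signal of the 16 leukocyte markers was 2766 to 5775 in bladder and 150 to 203 in stomach, and its part in these results was not tested.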
